A study of Danio rerio with 8 samples.

Results

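The respiratory chain genes analyzed here are the structural genes of the mitochondrial oxidative phosphorylation complexes, encoded partly by the mitochondrial genome and partly by the nucleus. They were taken by gene symbol, as every identifier whose name begins with mt-nd, mt-co, *mt-cyb* or mt-atp, with ndufa, ndufb, ndufc, ndufs or ndufv, with cox and a subunit number of 4 to 8, with atp5, with uqcr, or with sdh and a letter from a to d, leaving out the ndufaf assembly factors. This gave 108 of the 32057 identifiers in the tables, 13 from the mitochondrial genome and 95 from the nucleus. Of these, 107 are in the table of 2 dpf (days post-fertilization), because *ndufs8b* is listed at 2.5 dpf only. Subunit genes with symbols of another form, such as *cyc1* (cytochrome c1), fall outside the rule and were not analyzed here. The 4 sdhaf genes, which encode assembly factors of complex II in mammals, match the rule. They are counted with the nuclear members but kept apart from complex II below.

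The libraries were SMART-seq libraries of *sox10*+ cells from zebrafish embryos. They came from controls and from *slc30a1a*/*slc30a1b* double mutants, which lack both zebrafish paralogues of the zinc exporter Slc30a1, at 2 and 2.5 dpf, with 2 libraries per group and 8 in all. Both genotypes carried the *Tg(sox10:kikGR)* transgene, in which the *sox10* promoter drives a fluorescent protein in neural crest cells (NCCs), and fluorescent cells were sorted after the embryos were dissociated. Double homozygous mutants were recognized by a small head and small eyes. The alleles of the control embryos and the number of embryos in a pool are not given in the sources used here, and the mutants were bred from *slc30a1a*+/- *slc30a1b*-/- parents, whose normal offspring also lack *slc30a1b*. The labels name no treatment for any of the 4 groups. Nothing says that both libraries of a group came from separate pools, so p-values measure the spread between these libraries, which may be technical. In sorted bulk RNA, fewer cells of a type and less RNA per cell cannot be told apart.

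Oxidative phosphorylation passes electrons from NADH through complex I, or from succinate through complex II, to complex III, cytochrome c and complex IV, which reduces oxygen. Complexes I, III and IV pump protons across the inner mitochondrial membrane, and complex V, the ATP synthase, uses the gradient to make ATP. Complex II is built from nuclear genes alone, whereas the other complexes combine nuclear subunits with subunits made inside the organelle from long transcripts that are cut into single messenger RNAs (mRNAs). Several nuclear subunits of complex IV exist as isoforms from separate genes, some of which are used mainly in heart and skeletal muscle of mammals.

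The labels were checked first. *slc30a1a* was at 12.1 and 11.7 FPKM in controls and 5.96 and 7.06 FPKM in mutants at 2 dpf, and at 8.56 and 11.2 against 5.44 and 4.98 FPKM at 2.5 dpf (fragments scaled to the length of the transcript and to the size of the library, the unit of all levels here), and *slc30a1b* was at 0 to 0.14 FPKM in the 8 libraries, too low to check a genotype. *mt2*, a zinc-induced metallothionein, was at 0.88 and 1.36 FPKM in controls and 29.3 and 49.8 FPKM in mutants at 2 dpf, and at 0.3 and 0.84 against 7.41 and 16.9 FPKM at 2.5 dpf. Of the neural crest markers, *sox10* was at 47.6 to 156 FPKM and *foxd3* at 17.7 to 94.2 FPKM, while *crestin* was near 0 at 0.18 to 0.51 FPKM in all 8 libraries. The read depth behind the values is unknown. The comparisons below are differences of log2(FPKM + 1) fitted by limma. Genes whose mean was under 0.5 FPKM were left out, p-values were adjusted after Benjamini and Hochberg over every gene tested, and a gene is called at an adjusted p under 0.05. Of the 107 and 108 members in the tables, 106 passed this filter at each stage. *ndufa4l2b* was listed at 0 in 6 of the 8 libraries and at 0.06 and 0.08 FPKM in the others, and *ndufs8b* was at 0 to 0.07 FPKM at 2.5 dpf.

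The mRNAs of the mitochondrial genome together had a higher summed level than the nuclear members in all 8 libraries. These mRNAs, counted by gene and 13 in number, made up 9.63 and 8.08% of the summed FPKM in controls and 11.6 and 9.34% in mutants at 2 dpf. At 2.5 dpf they made up 6.62 and 6.33% in controls and 6.15 and 6.99% in mutants. All 4 libraries of 2.5 dpf were lower than all 4 of 2 dpf. The nuclear members, by contrast, made up 3.48 and 3.98% in controls and 4.36 and 4.52% in mutants at 2 dpf, and 5.64 and 4.70% against 5.23 and 5.42% at 2.5 dpf. The ratio of the mitochondrial to the nuclear sum, which does not depend on how a library is scaled, was 2.03 to 2.77 in the 4 libraries of 2 dpf and 1.17 to 1.35 in those of 2.5 dpf. It overlapped between genotypes at both stages, at 2.77 and 2.03 in controls and 2.66 and 2.07 in mutants at 2 dpf. The 24 other identifiers of the mitochondrial genome, which carry no gene symbol in the tables, went the other way, from 6.75 to 8.93% of the summed FPKM at 2 dpf to 9.22 to 12.2% at 2.5 dpf.

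**Figure D1:**
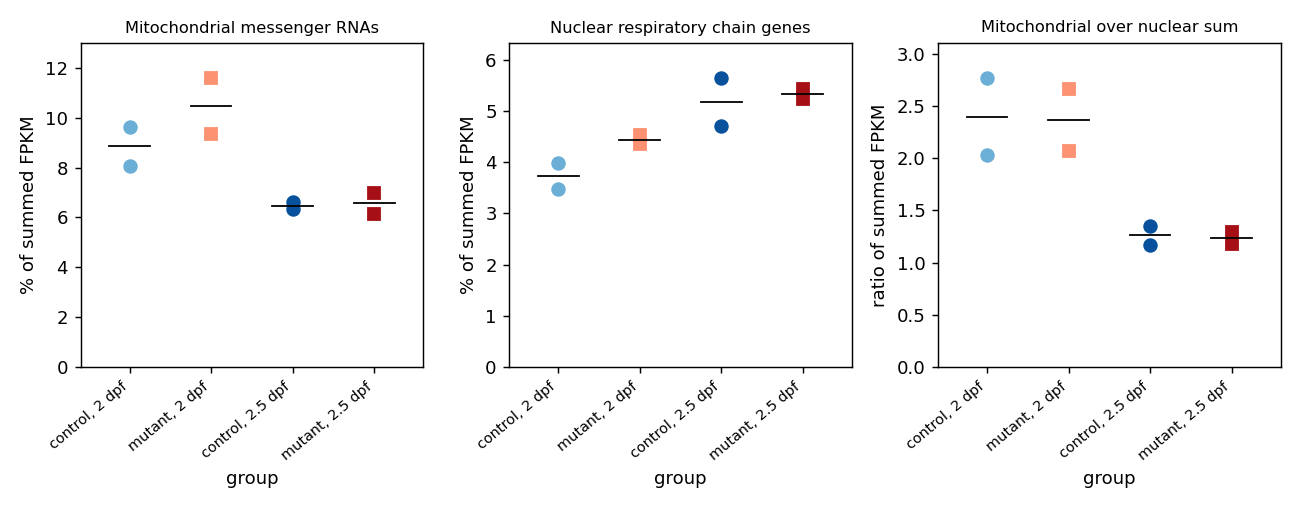
Share of the summed FPKM taken by the 13 mitochondrial mRNAs (left, %) and by the 95 nuclear genes (middle, %), and the ratio of both sums (right), by group. Each point is a library and each line the mean of 2 libraries. The ratio is between 2.03 and 2.77 at 2 dpf and between 1.17 and 1.35 at 2.5 dpf, and the genotypes overlap.

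The mitochondrial mRNAs differed widely among themselves. The subunits of complex IV were the highest, with means over the 8 libraries of 19425 FPKM for *mt-co2*, 15882 FPKM for *mt-co3* and 7003 FPKM for *mt-co1*. *mt-cyb*, the cytochrome b of complex III, was at 3879 FPKM. Of the subunits of complex I, *mt-nd3* was the highest with 1281 FPKM and *mt-nd6* the lowest with 159 FPKM. The subunits of complex V differed, with 2689 FPKM for *mt-atp8* and 357 FPKM for *mt-atp6*, although both are read from 1 overlapping transcript in vertebrates. Without knowing how reads were assigned between overlapping genes, a difference of level and one of assignment cannot be told apart.

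The nuclear members overlapped with the mitochondrial mRNAs in level. The mRNAs *mt-co2*, *mt-co3*, *mt-co1*, *mt-cyb* and *mt-atp8* had means above that of every nuclear member, while the other 8 lay below *cox7c*, the highest nuclear member. In complex IV the means ran from 2581 FPKM for *cox7c*, a small structural subunit, down to 3.85 FPKM for *cox7a1*, a heart and skeletal muscle isoform in mammals. In complex V they ran from 1296 FPKM for *atp5mc1*, a proton-carrying c subunit, to 154 FPKM for *atp5pb*, a subunit of the peripheral stalk. In complex III they ran from 435 FPKM for *uqcrb* to 58.6 FPKM for *uqcrc2a*, a core protein, and in complex I from 646 FPKM for *ndufb9* to 5.76 FPKM for *ndufa9b* among the genes that passed the filter. In complex II, *sdhc*, a membrane anchor, was at 128 FPKM, and of the pair of genes for the other anchor *sdhdb* made up 98.4 to 99.6% of the sum and *sdhda* the rest. Of the complex II assembly genes, *sdhaf4* was at 46.4 FPKM and *sdhaf1* at 1.59 FPKM.

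The effect of the mutations was compared first at 2 dpf. Of 106 members 1 was called, *cox6a2*, which was lower in mutants, whereas 3.52% of all 15453 genes tested were called and 0.997% were called lower. Fitted changes were above 0 for 94 of the 106 members, against 71.9% of all genes. The medians were 0.30 over the 13 mitochondrial members and 0.22 over the 93 nuclear members, beside 0.18 over all genes. The libraries of mutants lay above those of controls, with no overlap, for 61 members (44.8% of all genes) and below for 5 (12.1% of all genes), and 9 members had an unadjusted p under 0.05 (24.6% of all genes), 6 higher and 3 lower. Rescaling the libraries by median ratios moved the median of all genes to -0.02, that of nuclear members to -0.04 and that of mitochondrial members to 0.034, and left 38 of 93 nuclear members above 0.

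**Figure D2:**
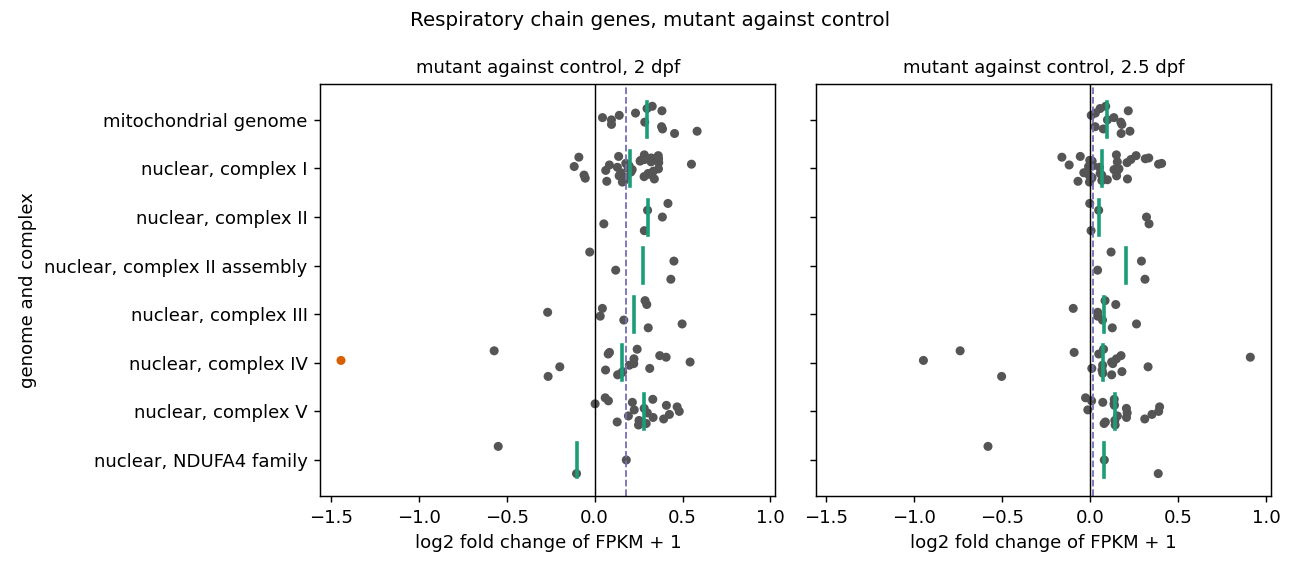
Log2 fold change of FPKM + 1 in mutants against controls (x axis) for the 106 members tested, by genome and complex (y axis), at 2 dpf (left) and 2.5 dpf (right). Each point is a gene, orange where called, green bars are medians of a group and the dashed line is the median of all genes. *cox6a2* at -1.44 is the called gene at 2 dpf, and no gene is called at 2.5 dpf.

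*cox6a2* encodes an isoform of subunit 6A of complex IV that in mammals is made in heart and skeletal muscle, while *cox6a1* encodes the widespread form. At 2 dpf *cox6a2* was at 103 and 76.1 FPKM in controls and 27.4 and 37.3 FPKM in mutants. Both mutant libraries lay under both controls, and the difference was -1.44 ± 0.231 (SE), limma adjusted p = 0.0321. *cox6a1* was at 303 and 369.8 FPKM against 399 and 383 FPKM, so that *cox6a2* made up 25.3 and 17.1% of the sum of both in controls and 6.42 and 8.87% in mutants. At 2.5 dpf *cox6a2* was at 16.7 and 33.4 FPKM against 11.8 and 11.7 FPKM, again lower in both mutants (-0.95 ± 0.334 (SE), limma adjusted p = 0.355). The call at 2 dpf was lost with each of the 4 libraries left out (adjusted p 0.0506 to 0.179 by limma), with the filter on low values removed, and with all 8 libraries in a single fit. With either control library left out, no gene at all was called at 2 dpf.

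The levels of muscle, blood, retinal, ionocyte, neural crest and neuron marker genes were read beside *cox6a2*. The summed level of 10 cardiac muscle genes was 358 and 250.1 FPKM in controls and 107 and 152 FPKM in mutants at 2 dpf, with 8 of 8 tested below 0 and 2 called, and 56.4 and 48.2 FPKM against 33.9 and 70.7 FPKM at 2.5 dpf, where controls and mutants overlap. The sum of the skeletal muscle genes was 810.4 and 537 FPKM against 364 and 494 FPKM at 2 dpf, with 2 of 18 tested above 0. At 2.5 dpf it was 166 and 152 FPKM against 204 and 412 FPKM, with 16 of 17 above 0 and none called. That of red blood cell genes was 40034 and 25465 FPKM against 9697 and 12456 FPKM at 2 dpf, with 9 of 14 called lower, and 9314 and 4797 FPKM against 15665 and 5086 FPKM at 2.5 dpf, with overlap. Photoreceptor and bipolar genes summed to 128 and 66.5 FPKM against 16.7 and 18.9 FPKM at 2 dpf, and to 141 and 175 FPKM against 23.2 and 40.6 FPKM at 2.5 dpf. At 2 dpf 4 of 8 tested were called lower (*crx*, *vsx1*, *otx5* and *gnb3a*). *opn1sw2*, the blue cone opsin, was called higher, at 0.63 and 0.56 against 4.07 and 4.44 FPKM. None of 11 was called at 2.5 dpf. Ionocyte genes summed to 50.5 and 46.7 FPKM against 77.6 and 90.4 FPKM at 2 dpf, and to 87.6 and 86.95 FPKM against 94.01 and 96.6 FPKM at 2.5 dpf. Of 6 tested at 2 dpf, 6 were above 0 and 1 was called, *foxi1*, which was higher at 0.26 and 0.23 against 20.2 and 20.1 FPKM. At 2.5 dpf 4 of 8 tested were above 0 and none was called. The sums of that stage include *foxi1* at 0.6 and 1.22 against 12.6 and 23.2 FPKM. Neural crest genes summed to 410 and 643 FPKM in controls and 619 and 660 FPKM in mutants at 2 dpf. At 2.5 dpf the sums were 580 and 783 against 677 and 675 FPKM. Of 13 tested, 9 were above 0 at 2 dpf (71.9% of all genes) and 7 at 2.5 dpf (51.9%), none called. Neuron genes summed to 990 and 498 against 924 and 813 FPKM at 2 dpf. At 2.5 dpf the sums were 1087 and 1388 against 1054 and 975 FPKM. Of 12 tested, 11 were above 0 at 2 dpf and 2 at 2.5 dpf, none called. No gene of these lists was at 0 in all libraries. At 2.5 dpf *cox6a2* was lower in mutants while the cardiac sums overlapped and the skeletal sums were higher, and the part of other cell types in the level of *cox6a2* was not tested.

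Other minor isoforms went in both directions at 2 dpf without passing the test. *cox5b2*, a gene for subunit 5B of complex IV, lay higher in both mutants, with 5.13 and 4.52 FPKM in controls and 7.17 and 6.28 FPKM in mutants (0.41 ± 0.180 (SE), limma adjusted p = 0.225). The complex I paralogue *ndufa9b* was also higher without overlap (0.18), while *cox4i2* (0.085) and *sdhda* (0.053) overlapped between genotypes. Those fitted lower included the following. *cox7a1* was at 3.17 and 3.34 FPKM in controls and 2.45 and 2.99 FPKM in mutants (-0.20 ± 0.178 (SE), limma adjusted p = 0.527). At 2.5 dpf *cox7a1* was higher in both mutants (0.33). *ndufa4*, the founding gene of a family that in mammals is found with complex IV, was at 62.8 and 48.6 FPKM in controls and 34.00 and 41.3 FPKM in mutants (-0.55 ± 0.202 (SE), limma adjusted p = 0.168), whereas *ndufa4l*, the main gene of the family, was at 204 and 238 against 249.9 and 249.6 FPKM. *ndufa4* was also lower at 2.5 dpf, with 30.4 and 33.3 against 20.96 and 20.98 FPKM (-0.58 ± 0.169 (SE), limma adjusted p = 0.281), and its libraries did not overlap at either stage. *cox4i1l*, a paralogue of the subunit 4 gene *cox4i1*, was at 32.3 and 24.3 FPKM against 17.8 and 19.3 FPKM at 2 dpf (-0.57 ± 0.198 (SE), limma adjusted p = 0.151). At 2.5 dpf its libraries ran from 3.38 to 29.5 FPKM and overlapped, with 4.58 and 29.5 FPKM in controls and 3.38 and 12.9 FPKM in mutants. *cox8b*, whose mammalian counterpart is a muscle isoform, was at 20.9 and 22.6 against 15.2 and 21.1 FPKM at 2 dpf and 22.4 and 29.1 against 14.97 and 20.9 FPKM at 2.5 dpf (-0.50 ± 0.242 (SE), limma adjusted p = 0.489). At the scaling of the authors the main isoforms *cox4i1*, *cox8a* and *cox7a2a* were fitted above 0 at both stages, none called. At 2 dpf they stood at 0.24, 0.13 and 0.31, beside a median of 0.18 over all genes. The mean of *cox7a2a* at 2.5 dpf was 1145.8 FPKM in controls and 1129.5 FPKM in mutants. The direction of *cox6a2*, *ndufa4*, *cox4i1l* and *cox8b* at 2 dpf was the same under every alternative scaling run.

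**Figure D3:**
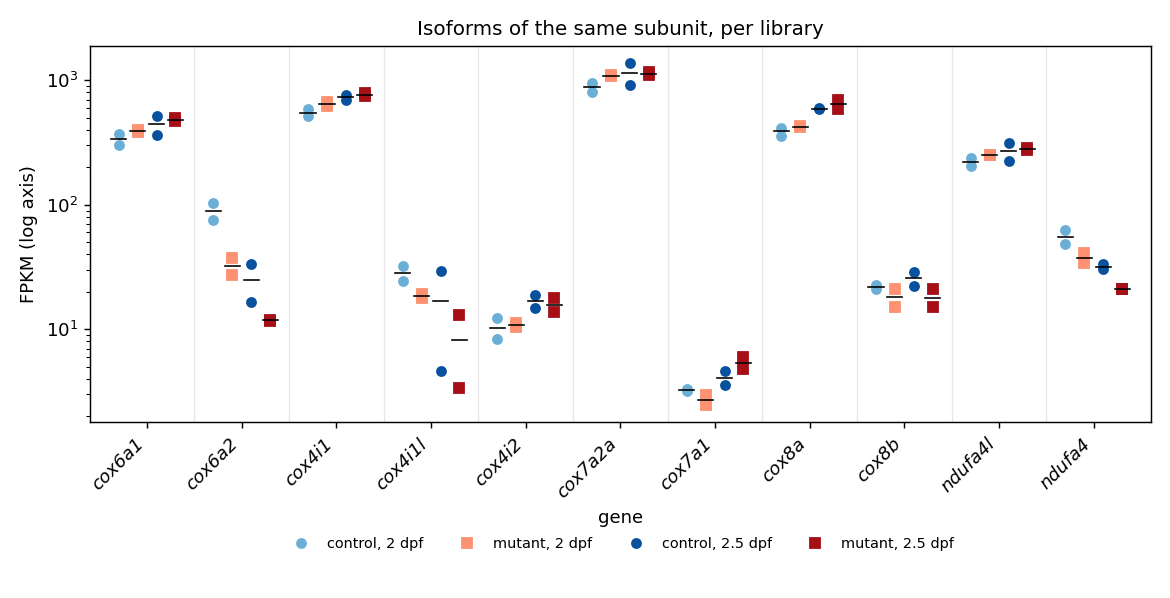
FPKM (log axis) of main and minor isoforms of complex IV subunits and of the NDUFA4 family (x axis) in each library. Points are libraries, lines are means of 2 libraries, circles are controls and squares mutants. *cox6a2* and *ndufa4* are lower in mutants at both stages with no overlap, and *cox4i1l* spans 3.38 to 29.5 FPKM at 2.5 dpf.

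Among nuclear members fitted higher at 2 dpf, the 5 largest changes were in complexes I, III, IV and V and none was called. *ndufab1a*, one of a pair of genes for the acyl carrier protein of complex I, was at 163 and 171 FPKM in controls and 242 and 249 FPKM in mutants (0.55 ± 0.151 (SE), limma adjusted p = 0.0978), and made up 48.3 and 45.1% of the pair in controls and 55.3 and 54.2% in mutants. Its partner *ndufab1b* overlapped between genotypes. *cox6b1*, a subunit at the contact of complex IV dimers, was at 513 and 520.4 FPKM against 838 and 677 FPKM (0.54 ± 0.168 (SE), limma adjusted p = 0.121). *uqcrh*, the hinge protein of complex III, was at 183 and 206 FPKM against 266 and 283 FPKM (0.50 ± 0.157 (SE), limma adjusted p = 0.126). In complex V the c subunit gene *atp5mc3a* was at 177 and 217 FPKM against 252 and 297 FPKM (0.48 ± 0.182 (SE), limma adjusted p = 0.174), and *atp5if1b*, one of a pair of genes for the inhibitor of the enzyme, was at 257 and 225 FPKM against 331 and 337 FPKM (0.47 ± 0.157 (SE), limma adjusted p = 0.141). In these 5 genes, picked for the size of their rise, both mutant libraries were above both controls, as in 44.8% of all genes.

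In complexes I to V, the medians of the nuclear members at 2 dpf lay between 0.16 and 0.30. The sdhaf genes (median 0.28, 3 of 4 above 0) and the NDUFA4 family (-0.10, 1 of 3) were kept apart from these complexes, though both count as nuclear members. The median was 0.20 in complex I, where 32 of 36 were above 0, and 0.30 in complex II, where 5 of 5 were. It was 0.23 in complex III with 7 of 8 above 0, 0.16 in complex IV with 14 of 18, and 0.28 in complex V with 19 of 19. The exception in complex III was *uqcrc2a*, a core protein, with 57.3 and 65.2 FPKM in controls and 46.3 and 55.4 FPKM in mutants (-0.27 ± 0.179 (SE), limma adjusted p = 0.400).

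All 13 mitochondrial mRNAs were fitted above 0 in mutants at 2 dpf, none was called and none had an unadjusted p under 0.05, with a smallest adjusted p of 0.280 by limma. *mt-co1* was at 9631 and 7161 FPKM in controls and 11987 and 9787 FPKM in mutants (0.38 ± 0.195 (SE), limma adjusted p = 0.280), and was the mRNA whose libraries did not overlap. The largest fitted change was that of *mt-nd5*, at 187 and 114 FPKM against 297 and 162 FPKM (0.58 ± 0.349 (SE), limma adjusted p = 0.348), with overlap. *mt-cyb* was at 5068 and 4497 against 5172 and 4693 FPKM, a difference of 0.045. Libraries of the same group differed as much, since replicate 2 was lower than replicate 1 for 12 of the 13 mRNAs in controls (median -0.43 on the log2 scale) and for 13 of 13 in mutants (median -0.33), while for the nuclear members replicate 2 was the higher in 83 and 68 of 93. After median-ratio rescaling 5 of the 13 were below 0, namely *mt-nd1*, *mt-nd3*, *mt-cyb*, *mt-co2* and *mt-co3*. Without replicate 2 of the controls 3 were below 0, and without replicate 1 of the mutants 5 were.

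**Figure D4:**
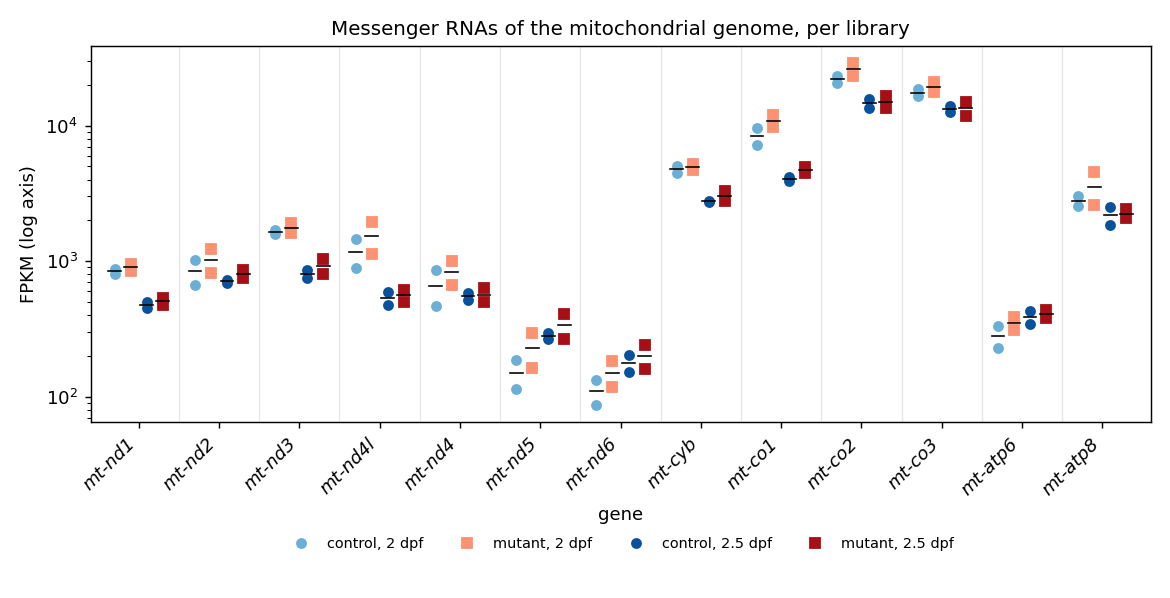
FPKM (log axis) of the 13 mRNAs of the mitochondrial genome (x axis) in each of the 8 libraries. Points are libraries, lines are means of 2 libraries, circles are controls and squares mutants. *mt-co1*, *mt-nd1*, *mt-nd3*, *mt-nd4l* and *mt-cyb* are lower at 2.5 dpf than at 2 dpf in both genotypes, and *mt-nd5* and *mt-nd6* are the lowest at 2 dpf.

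At 2.5 dpf no member and none of the 17379 genes tested was called by limma, so that percent called was 0. Over all genes this count depended on the processing, with 28 called when the filter was raised to 2 FPKM and 249 when all 8 libraries were fitted together, no member among them. Blocking on the replicate number, which marks no shared litter or batch in the labels, called 738 genes and 1 member, *cox5b2*. At an unadjusted p under 0.05 there were 3 members against 12.2% of all genes, *atp5if1b* being higher (7.18% of all genes) and *cox6a2* and *ndufa4* lower (5.06% of all genes). The medians were 0.098 over the mitochondrial and 0.098 over the nuclear members, beside 0.016 over all genes, and 86 of 106 were above 0 (51.9% of all genes). Mutant libraries lay above controls without overlap for 28 members (24.3% of all genes) and below for 3 (19.2% of all genes), which were *cox6a2*, *ndufa4* and *cox8b*. *atp5if1b* was at 281 and 251 FPKM in controls and 338 and 361 FPKM in mutants (0.39 ± 0.155 (SE), limma adjusted p = 0.400). *atp5mc3a* was at 235 and 219 FPKM against 273 and 324 FPKM, and *ndufab1a* at 262 and 227 FPKM against 308 and 332 FPKM. These 3 genes were above controls in both mutant libraries at both stages. They shared this with other members, *mt-co1*, *ndufa8* and *sdhc* among them, and the share of all genes was not computed.

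Some of the largest fitted changes at 2.5 dpf varied with the library left out. *cox5b2* was at 1.34 and 4.93 FPKM in controls and 3.22 and 10.6 FPKM in mutants (0.91 ± 0.622 (SE), limma adjusted p = 0.634), and its change was 0.18 and 1.64 without replicate 2 and replicate 1 of the mutants, and 0.24 and 1.58 without replicate 1 and replicate 2 of the controls. *cox4i1l* changed sign, at 0.49 without replicate 2 of the controls. *ndufa9b*, a paralogue of the complex I subunit gene *ndufa9a*, was at 4.38 and 6.47 FPKM against 6.46 and 8.46 FPKM (0.41 ± 0.250 (SE), limma adjusted p = 0.598), and *ndufa12*, a complex I subunit, at 564 and 391 FPKM against 435 and 405 FPKM (-0.16 ± 0.216 (SE), limma adjusted p = 0.823). The controls themselves differed at this stage, replicate 2 being lower than replicate 1 for 72 of 93 nuclear members (median -0.16, beside 0.082 over all genes). Without replicate 2 of the controls 49 of 93 nuclear members and 6 of 13 mitochondrial members were above 0, with medians of 0.012 and -0.031.

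Whether the effect of the mutations differed between stages was tested in the 8 libraries by the interaction of stage and genotype. No member was called and none had an unadjusted p under 0.05, whereas 0 of 16703 genes were called (0%) and 902 (5.4%) had an unadjusted p under 0.05, 3.75% of all genes being lower and 1.65% higher. The fitted difference was above 0 for 21 of 106 members, against 28.9% of all genes. This direction turned with the scaling, since after median-ratio rescaling 9 of 13 mitochondrial and 84 of 93 nuclear members were above 0. The medians were then 0.052 and 0.15, beside 0.017 over all genes. With an equal sum outside the mitochondrial genome, 0 of 13 and 11 of 93 were above 0. The medians there were -0.30 and -0.20, beside -0.23 over all genes. The largest positive difference was that of *cox7a1* (0.53 ± 0.266 (SE), limma adjusted p = 0.859), and the transcripts listed for *cox7a1* and for *sdha* differ between the tables of both stages. The largest negative differences were those of *cox6b1* (-0.42 ± 0.403 (SE), limma adjusted p = 0.879) and of *sdha*, the flavoprotein of complex II (-0.42 ± 0.254 (SE), limma adjusted p = 0.859). The fitted difference of *cox6a2* was 0.49 ± 0.451 (SE), limma adjusted p = 0.872, so that a difference between stages in its lower level in mutants did not pass the test.

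The stages were compared within each genotype. The values of each stage are in a table of their own, so stage and table cannot be told apart. Of the 107 members in both tables, 103 list the same transcripts in both, the mitochondrial mRNAs among them. The 4 that list different transcripts are *sdha*, *sdhaf1*, *cox7a1* and *ndufa4l2b*. In controls, 10 of 106 members were called, 3 higher and 7 lower, beside 21.5% of all 16321 genes tested, 19.1% higher and 2.48% lower. Of the 7 lower members 5 were mitochondrial mRNAs. The split depended on the scaling, as median-ratio rescaling left 8 members called lower and 0 higher, while there were 36 higher and 6 lower at an equal sum outside the mitochondrial genome, and without the filter on low values none was called. In mutants, 2 of 106 members were called, both lower, beside 2.8% of all genes, 0.261% lower. At an unadjusted p under 0.05 there were 23 members higher (40.4% of all genes) and 8 lower (4.22%) in controls, of 44.6% of all genes in either direction, and 19 higher (25.5%) and 9 lower (2.85%) in mutants. Libraries of 2.5 dpf lay above those of 2 dpf without overlap for 58 members in controls (66.2% of all genes) and 59 in mutants (52.2%). The median was -0.40 over the mitochondrial and 0.32 over the nuclear members in controls, beside 0.44 over all genes, and -0.61 and 0.24 beside 0.25 in mutants.

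**Figure D5:**
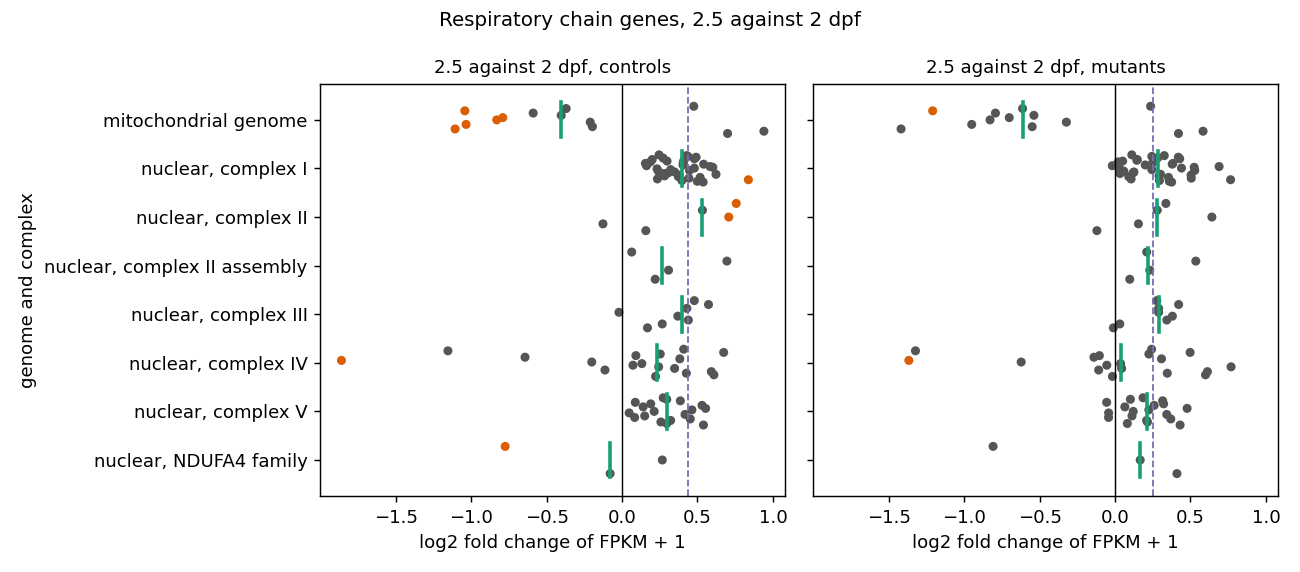
Log2 fold change of FPKM + 1 at 2.5 against 2 dpf (x axis) for the 106 members tested, by genome and complex (y axis), in controls (left) and mutants (right). Each point is a gene, orange where called, green bars are medians of a group and the dashed line is the median of all genes. Mitochondrial mRNAs have medians of -0.40 and -0.61, and nuclear members 0.32 and 0.24.

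The mitochondrial mRNAs divided into a larger set that was fitted lower and a smaller set that was not. *mt-atp8* was in the larger set and *mt-atp6* in the smaller in both genotypes, although both are read from a shared transcript in vertebrates. Their read assignment is not given in the sources used here, so changes of mRNA level and of assignment cannot be told apart. The same holds for *mt-nd4l*, whose gene overlaps that of *mt-nd4*. *mt-co1* was at 9631 and 7161 FPKM at 2 dpf and 3871 and 4202 FPKM at 2.5 dpf in controls (-1.04 ± 0.205 (SE), limma adjusted p = 0.0279), and at 11987 and 9787 FPKM and 4461 and 4923 FPKM in mutants (-1.21 ± 0.140 (SE), limma adjusted p = 0.0379). It fell in both genotypes, with no overlap of stages. *mt-nd3*, a subunit of the membrane arm of complex I, fell from 1579 and 1706 FPKM to 854 and 752 FPKM in controls (-1.03 ± 0.171 (SE), limma adjusted p = 0.0222) and was at 1923 and 1601 and 798 and 1033 FPKM in mutants (-0.95 ± 0.178 (SE), limma adjusted p = 0.0551). *mt-nd4l* fell from 1446 and 892 FPKM to 588 and 473 FPKM in controls (-1.11 ± 0.272 (SE), limma adjusted p = 0.0407), and in mutants had the largest fitted change of all members (-1.42 ± 0.280 (SE), limma adjusted p = 0.0591). *mt-nd1* (-0.83 ± 0.168 (SE), limma adjusted p = 0.0293) and *mt-cyb* (-0.79 ± 0.167 (SE), limma adjusted p = 0.0316) also fell in controls. In mutants they stood at -0.83 and -0.70, with limma adjusted p of 0.0508 and 0.0582. In all, the libraries of 2.5 dpf lay below those of 2 dpf without overlap for 8 of 13 in controls (7.54% of all genes) and 9 of 13 in mutants (8.38% of all genes).

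The 3 mitochondrial mRNAs fitted higher at 2.5 dpf were *mt-nd5*, *mt-nd6* and *mt-atp6* in both genotypes, none called. *mt-nd5* was at 187 and 114 FPKM and 297 and 267 FPKM in controls (0.94 ± 0.265 (SE), limma adjusted p = 0.0529) and at 297 and 162 FPKM and 408 and 265 FPKM in mutants (0.58 ± 0.349 (SE), limma adjusted p = 0.320), with overlap in mutants. *mt-nd6*, the mRNA read from the other strand of the mitochondrial DNA, was at 132 and 86.5 FPKM and 201 and 151 FPKM in controls (0.70 ± 0.268 (SE), limma adjusted p = 0.0981). Whether the counting used strand is not given in the sources used here, and without it reads from *mt-nd6* and from transcripts of the opposite strand cannot be told apart. *mt-atp6* was at 335 and 228 FPKM and 431 and 344 FPKM in controls (0.48 ± 0.244 (SE), limma adjusted p = 0.176), and its direction reversed after median-ratio rescaling, to -0.16 in controls and -0.14 in mutants.

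Ratios between mitochondrial mRNAs of a library do not depend on its scaling, and 5 of 6 ratios computed did not overlap between the stages. The 6 pairs were picked by hand, and no share over all pairs was computed. How reads were assigned between overlapping genes is not given in the sources used here, and stage and table cannot be told apart. *mt-atp8* was 8.29 to 11.7 times as high as *mt-atp6* in the 4 libraries of 2 dpf and 5.35 to 5.83 times as high in those of 2.5 dpf. *mt-nd4l*, whose gene overlaps that of *mt-nd4* in vertebrates, stood at 1.69 to 1.93 times *mt-nd4* at 2 dpf and at 0.907 to 1.01 times at 2.5 dpf. The ratio of *mt-nd5* to *mt-nd1* was 0.141 to 0.313 at 2 dpf and 0.493 to 0.863 at 2.5 dpf. In these 3 ratios the genotypes overlapped within each stage. The ratio of *mt-co2* to *mt-co1* was 2.36 to 2.89 at 2 dpf and 3.002 to 4.08 at 2.5 dpf. At 2 dpf it was 2.43 and 2.89 in controls and 2.41 and 2.36 in mutants, without overlap, and at 2.5 dpf the genotypes overlapped. That of *mt-cyb* to *mt-nd5* was 17.4 to 39.5 at 2 dpf and 6.81 to 12.4 at 2.5 dpf, with genotypes overlapping at both stages. The ratio of *mt-nd6* to *mt-nd5* overlapped between the stages, at 0.620 to 0.759 and 0.566 to 0.679.

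At the scaling of the authors, the nuclear members shared the general upward shift of the stage. In controls their median was below that of all genes (0.32 beside 0.44), and in mutants it was near it (0.24 beside 0.25). In controls 84 of 93 were fitted higher, against 85.4% of all genes, and 3 were called. *ndufs8a*, an iron-sulfur subunit of complex I, rose from 17.4 and 17.5 FPKM to 32.3 and 31.6 FPKM (0.84 ± 0.173 (SE), limma adjusted p = 0.0304). In complex II, *sdha* rose from 31.96 and 30.4 FPKM to 55.9 and 50.9 FPKM (0.76 ± 0.174 (SE), limma adjusted p = 0.0364), from transcripts that differ between the tables, and *sdhc* rose from 79.8 and 90.8 FPKM to 142 and 138 FPKM (0.71 ± 0.172 (SE), limma adjusted p = 0.0399). In mutants the same genes stood at 0.77, 0.34 and 0.64, none called, and 78 of the 93 nuclear members were higher, against 78.7% of all genes. By complex, 36 of 36 members of complex I were higher in controls (median 0.40) and 35 of 36 in mutants (0.29), and 19 of 19 members of complex V in controls (0.30) and 16 of 19 in mutants (0.21). After median-ratio rescaling, which moved the median of all genes from 0.44 to -0.024 in controls and from 0.25 to -0.028 in mutants, the median of nuclear members was -0.31 and -0.13, and 6 and 23 of 93 were above 0, so the 3 rises are relative to the scaling of the authors. The falls of the mitochondrial mRNAs were then larger, with medians of -1.04 and -0.99.

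The nuclear members *cox6a2* and *ndufa4* fell with the stage. *cox6a2* fell from 103 and 76.1 FPKM to 16.7 and 33.4 FPKM in controls (-1.86 ± 0.347 (SE), limma adjusted p = 0.0261) and from 27.4 and 37.3 FPKM to 11.8 and 11.7 FPKM in mutants (-1.37 ± 0.196 (SE), limma adjusted p = 0.0430). *ndufa4* fell from 62.8 and 48.6 FPKM to 30.4 and 33.3 FPKM in controls (-0.77 ± 0.202 (SE), limma adjusted p = 0.0453) and was at -0.81 in mutants (limma adjusted p = 0.0604). The cardiac muscle genes were lower at 2.5 dpf beside them, 8 of 8 called in controls and 2 of 8 in mutants. So were the red blood cell genes, 13 of 14 called in controls and 0 of 14 in mutants. Of all genes, 2.48% were called lower in controls and 0.261% in mutants, where calls were fewer in general. Of the skeletal muscle genes, whose sum was 810.4 and 537 FPKM at 2 dpf and 166 and 152 FPKM at 2.5 dpf in controls, 16 of 18 were called lower and 1 higher in controls and 0 of 17 in mutants. Their part in the fall was not tested. *cox4i1l* was at -1.15 in controls with overlap and at -1.32 in mutants (limma adjusted p = 0.179), while *cox4i2*, an isoform linked to oxygen supply in mammals, was at 8.35 and 12.2 FPKM and 18.9 and 14.8 FPKM in controls (0.67 ± 0.248 (SE), limma adjusted p = 0.0914). *cox7a1* was at 2.45 and 2.99 FPKM and 4.76 and 5.94 FPKM in mutants (0.77 ± 0.185 (SE), limma adjusted p = 0.0750), from transcripts that differ between the tables.

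These stage calls rested on few libraries. With either control library of 2 dpf left out no member and no gene at all was called in controls. Without replicate 1 of the controls at 2.5 dpf 4 were called (*cox6a2*, *mt-nd1*, *mt-nd3* and *mt-nd4l*), and without replicate 2 of that group 3 were (*cox6a2*, *cox4i1l* and *cox5b2*). In mutants no member was called with any 1 of the 4 libraries left out.

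Genes that serve the respiratory chain were described as lists at 2 dpf, each beside all genes tested (median 0.18, 19.3% with an unadjusted p under 0.05 and higher). Of 43 assembly factors of the complexes, 40 were above 0 with a median of 0.31, none was called, and 12 had an unadjusted p under 0.05, all higher. Of 74 mitochondrial ribosomal protein genes, which translate the 13 mitochondrial mRNAs, 72 were above 0 with a median of 0.32, none was called, and 27 had an unadjusted p under 0.05. Of 24 identifiers of genes for the copying and transcription of mitochondrial DNA, 21 were above 0 with a median of 0.41, none was called, and 11 had an unadjusted p under 0.05. *top1mt* entered with separate identifiers, fitted at 0.82 and -0.14. The tricarboxylic acid cycle genes, which feed electrons into the chain, had a median of 0.18 with 18 of 19 above 0, and the glycolysis genes 0.0084 with 17 of 32. Of 9 nuclear regulators of respiration 6 were above 0, and of 16 mitochondrial stress genes 13 were, with medians of 0.072 and 0.14 and none called. At 2.5 dpf the medians of the first 3 lists were 0.18, 0.14 and 0.093 beside 0.016 over all genes. Those higher at an unadjusted p under 0.05 were then 0 of 43, 2 of 74 and 1 of 24, beside 7.18% of all genes.

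Among the carriers and cytochrome c genes, 2 of 13 tested were called at 2 dpf, beside 3.52% of all genes. *slc25a6*, an exchanger of ADP and ATP across the inner membrane, rose in mutants from 4.08 and 2.81 FPKM to 14.7 and 11.1 FPKM (1.65 ± 0.228 (SE), limma adjusted p = 0.0244), with no overlap. *ckmt2a*, a mitochondrial creatine kinase of the type found in muscle of mammals, fell from 3.82 and 2.54 FPKM to 0.09 and 0.7 FPKM (-1.60 ± 0.266 (SE), limma adjusted p = 0.0343). At 2.5 dpf neither was called, with 12.8 and 8.05 FPKM in controls and 15.8 and 18.7 FPKM in mutants for *slc25a6*, and 6.49 and 11.9 FPKM against 0.67 and 2.6 FPKM for *ckmt2a*, which was lower in both mutants at both stages.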

How the data were processed

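The authors extracted RNA from sorted *sox10*+ cells, copied it to cDNA from the poly(A) tail (SMARTer), and sequenced paired ends. Reads were placed on GRCz11 by HISAT, and StringTie built a merged set of transcripts and the FPKM per gene. For levels the study names edgeR beside StringTie, and versions are not given in the sources used here. The deposited FPKM values, in 1 table per stage, were used as scaled by the authors, without counts or depth. Stage comparisons cross both tables. Members and lists were chosen with earlier results of these data known. Differences were fitted on log2(FPKM + 1) with limma (version 3.58.1, under R 4.3.3), using eBayes with a trend of the variance on the level. Genes under a mean of 0.5 FPKM were left out, and the Benjamini-Hochberg adjustment ran over every gene tested. An exact permutation test of 2 against 2 libraries cannot go below p = 0.333 and was not used. Genes named singly were taken from the members called, mitochondrial mRNAs, isoforms, and the highest and lowest of each complex. They were also taken from the 5 nuclear members with the largest rise and fall per comparison and from called genes of the lists. Not all of these are named. The calculation was tested on simulated data. The alternatives were median-ratio rescaling, scaling to an equal sum outside the mitochondrial genome, a pseudocount of 0.1, leaving the filter out or raising it to 2 FPKM, dropping the variance trend, blocking on the replicate number, fitting the 8 libraries together, and leaving out each library in turn. Sequences and positions were not analysed here.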

Additional observations from a re-analysis of the deposited data

Results flagged for a closer look

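In 2 members the libraries of both groups were separated at each side of a comparison but in opposite directions. The share of all genes that did so was not computed. Separation itself was frequent, with 44.8% of all genes above and 12.1% below in mutants at 2 dpf. At 2.5 dpf it was 24.3 and 19.2%. Between the stages, 66.2% of all genes lay above at 2.5 dpf in controls and 8.38% below in mutants. *cox7a1* lay lower in both mutant libraries at 2 dpf, with 3.17 and 3.34 FPKM in controls and 2.45 and 2.99 FPKM in mutants (log2 fold change -0.20), and higher in both at 2.5 dpf, with 3.54 and 4.58 FPKM against 4.76 and 5.94 FPKM (0.33). The interaction of genotype and stage was 0.53 ± 0.266 (SE), limma adjusted p = 0.859, and the tables of both stages list different transcripts for this gene. *sdhdb*, a membrane anchor of complex II, was higher in both libraries of 2.5 dpf than of 2 dpf in controls, with 112 and 106 FPKM against 93.7 and 102 FPKM (0.16), and lower in both in mutants, with 108 and 110.4 FPKM against 112 and 126 FPKM (-0.12). Its interaction was -0.28 ± 0.199 (SE), limma adjusted p = 0.859. Neither difference passed the test.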

How the results depend on the processing

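The number of members called was the least stable result. At 2 dpf it was 1 and became 0 without the filter on low values, 0 with all 8 libraries in a single fit, and 0 to 0 with a library left out. In controls between stages it was 10 and became 0 without the filter, 42 (36 higher and 6 lower) with an equal sum outside the mitochondrial genome, and 0 to 4 with a library left out. In mutants between stages it was 2 and became 0 without the filter and 0 to 0 with a library left out. Without the filter more genes were tested, and the cause was not tested otherwise. Replicate numbers mark no shared litter or batch in the labels, and deviations of libraries with the same number correlated at 0.145 at 2 dpf and 0.369 at 2.5 dpf. With the number as a replicate block, 1 member was called at 2 dpf, 1 at 2.5 dpf (*cox5b2*, limma adjusted p = 0.0447, beside 738 of all genes), 1 between stages in controls and 0 in mutants. The median change of nuclear members at 2 dpf became -0.044 after median-ratio rescaling, and with a library left out it ranged from 0.13 to 0.33. That of mitochondrial members at 2 dpf ranged from 0.024 to 0.59, and at 2.5 dpf the ranges were -0.031 to 0.21 for mitochondrial and 0.012 to 0.20 for nuclear members. Single genes changed sign as follows. Median-ratio rescaling gave -0.22 for *mt-cyb* and -0.029 for *mt-co3* in mutants against controls at 2 and 2.5 dpf, and -0.16 for *mt-atp6* between stages in controls, and the equal sum outside the mitochondrial genome gave -0.038 for *mt-co3* at 2.5 dpf. With a library left out, mutants against controls ranged from -0.041 to 0.13 for *mt-cyb* at 2 dpf and, at 2.5 dpf, from -0.17 to 0.18 for *mt-co3*, -0.083 to 0.54 for *mt-nd5*, -1.96 to 0.49 for *cox4i1l* and -0.42 to 0.10 for *ndufa12*. Between stages the ranges were -2.38 to 0.071 for *cox4i1l* and -1.31 to 0.028 for *cox5b2* in controls, and -0.87 to 0.59 for *cox5b2* in mutants. Single-gene results under the alternatives lost a call in 76 of 787 cases, gained 1 in 11 and changed sign in 15. Most genes followed here were not called in the main fit and had no call to lose. The 685 cases that kept direction and call are therefore no measure of how stable the calls were. With 2 libraries per group and an unknown read depth, differences of the size of these medians could not be resolved gene by gene.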

Other observations

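Shares within pairs of paralogous members, which do not depend on the scaling of a library, varied in other genes too. *uqcrc2a* made up 41.2 and 40.4% of the sum with *uqcrc2b* in controls and 36.8 and 34.9% in mutants at 2 dpf, and 33.7 and 35.1% against 32.9 and 36.02% at 2.5 dpf, with overlap at the later stage. *ndufab1a* made up 46.3 and 51.9% of the sum with *ndufab1b* in controls and 55.7 and 59.9% in mutants at 2.5 dpf, the same order as at 2 dpf. *cox6b1* made up 59.3 to 69.3% of the sum with *cox6b2* in the 4 libraries of 2 dpf and 47.8 to 62.0% in those of 2.5 dpf, where replicate 2 was higher than replicate 1 in both genotypes. *ndufa4* made up 23.4 and 16.9% of its family in controls and 11.9 and 14.1% in mutants at 2 dpf, and 8.89 and 12.8% against 6.82 and 7.001% at 2.5 dpf. The pairs *atp5mea* and *atp5meb* (24.4 to 27.7% for *atp5mea*) and *ndufa9a* and *ndufa9b* (3.84 to 5.72% for *ndufa9b*) stayed within narrow ranges over the 8 libraries. These shares were read after the values were seen and were not tested.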
